A study of Homo sapiens with 6 samples.

Results

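Counts of TRIB1, TRIB2, TRIB3, AKT1 and AKT2 mRNA were compared between HT-1080 cells given a kinase inhibitor and HT-1080 cells given DMSO. These 5 genes were taken by symbol from the 20683 gene symbols of the count tables, and all 5 had enough counts to enter the fit over 11391 genes. They were selected on the difference in their counts between these same libraries, known from earlier results, so their levels and fold changes are given as a description, without a test. HT-1080 is a human fibrosarcoma cell line. The treated group had 3 cultures kept for 4 h with SLV-8472-01, which the series describes as an inhibitor of the kinase IRAK4, at a labelled dose of 5 mM. That label may give a stock or carry a wrong unit, and it is repeated here as it stands. The control group had 3 cultures with 0.1% DMSO for the same time, and no DMSO percentage is labelled for the treated group. Neither group is labelled with any other agent or any genetic change. The design text calls the 3 libraries of a group biological replicates.

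Tribbles proteins have the fold of a protein kinase but are poor or inactive as enzymes, and they act as scaffolds. Through a motif in the tail they recruit the ubiquitin ligase COP1 to clients such as C/EBP transcription factors, and they also bind the MAP kinase kinases. TRIB3 is known as a stress gene whose transcription is raised by ATF4 and DDIT3 (CHOP), and its protein has been reported to bind AKT and to hinder its phosphorylation. AKT1 and AKT2 are serine/threonine kinases that PI3 kinase lipids bring to the membrane, where PDPK1 and the mTORC2 complex phosphorylate them. Active AKT phosphorylates proteins of growth, survival and glucose metabolism and keeps FOXO transcription factors out of the nucleus. Protein and phosphorylation were not measured, and mRNA levels say nothing of kinase activity.

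Libraries held 7644478 to 11427779 counts with the inhibitor and 12003104 to 15336351 with DMSO, and the mean total with the inhibitor was 0.677 times that with DMSO (exact permutation test, two-sided, p = 0.1, which is the lowest value 3 against 3 can reach). Depth therefore moves with the groups, and its part in the results was not tested beyond fits on libraries thinned to 1 total. Of 9 mesenchymal markers, only THY1 was under 1 CPM (counts per 1000000 after TMM scaling, the normalised count used throughout). Their summed level was 9520 to 11933 CPM with the inhibitor and 8784 to 9737 CPM with DMSO. VIM made up the largest part of that sum, which therefore says little of the other markers. All 11 markers of epithelial, leukocyte, endothelial and muscle cells were under 1 CPM, and CDH1, PTPRC, CD3E and MYOG were among those with no count. Each library amplifies 1 part of each targeted transcript by PCR, so levels of different genes are not on a common scale. For the same reason, few reads cannot tell a rare transcript from a poorly amplified one. A value can be compared between libraries for 1 gene, and a ratio of genes only between libraries. In bulk RNA, fewer cells with a transcript and less of it per cell cannot be told apart.

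The sequences below show what could set these genes apart in regulation and in counting. RefSeq promoter windows (build GRCh38.p14) were at hand for TRIB2, TRIB3, AKT1 and AKT2, that is for 4 of the 5 genes. The 250 bases before the start site, the first of 3 listed for TRIB3, are shown for TRIB3, whose counts differed most between the groups, and for TRIB2, which differed the other way. They lie at chr20:381045-381294 on the plus strand and at chr2:12716686-12716935 on the plus strand, and capitals mark a match to the FOXO element GTAAACAA in either direction.
TRIB3: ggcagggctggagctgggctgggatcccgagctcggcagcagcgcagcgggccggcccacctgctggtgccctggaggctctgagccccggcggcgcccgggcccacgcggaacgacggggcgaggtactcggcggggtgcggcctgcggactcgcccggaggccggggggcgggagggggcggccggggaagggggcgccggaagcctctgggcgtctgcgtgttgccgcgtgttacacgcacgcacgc
TRIB2: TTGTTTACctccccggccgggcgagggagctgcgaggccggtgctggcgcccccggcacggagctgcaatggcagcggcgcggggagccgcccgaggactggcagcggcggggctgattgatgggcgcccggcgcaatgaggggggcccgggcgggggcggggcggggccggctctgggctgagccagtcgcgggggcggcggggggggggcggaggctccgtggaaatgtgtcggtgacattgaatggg
The TRIB2 window opens with a match, read on the other strand as TTGTTTAC, whose first base lies 250 bases before the start site. Such a match was found in 0.846% of the 35116 windows of this length in the table. No window of TRIB2, TRIB3, AKT1 or AKT2 held TGATGNAA, the core of the element shared by ATF4 and C/EBP (3.14% of all windows), or the cyclic AMP response element TGACGTCA (1.65%), on either strand. Sequence outside the 250 bases was not searched, so these genes may hold such elements elsewhere. The 3 motifs do not overlap in the printed windows. Both printed windows are rich in G and C, at 78.8% for TRIB3 and 76.8% for TRIB2 against a median of 58% over all windows, and they hold 33 and 30 CpG pairs against a median of 11.

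Coding sequences show how far reads of 1 family member could be counted for another, although the amplified parts were not at hand. In the longest coding sequences of GENCODE 29, TRIB2 and TRIB3 were identical at 63.2% of 1010 aligned bases, and AKT1 and AKT2 at 80.2% of 1440. The longest runs that 2 genes share are shown because a read inside such a run could not be given to either gene.
AKT1 and AKT2: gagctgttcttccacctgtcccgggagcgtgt
TRIB2 and TRIB3: atggggacatgca
The AKT run is 32 bases long, at coding bases 700 to 731 of AKT1, and the Tribbles run 13 bases. TRIB1 shared at most 20 bases in a row with TRIB2 and 15 with TRIB3.

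TRIB3 mRNA was several times more abundant with the inhibitor, TRIB2 was lower, and TRIB1, AKT1 and AKT2 had overlapping groups. Over all 11391 genes, 20.2% passed the threshold of an adjusted p under 0.05 in edgeR's quasi-likelihood test, 1130 upward (9.92%) and 1168 downward (10.3%). With library totals as the only scaling these numbers were 831 and 1714. The 5 genes were chosen on this contrast, so it is no test of them and their calls are not counted. The groups did not overlap for 2 of the 5, and for 36.3% of all genes tested.

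TRIB3 was at 530, 434 and 448 CPM in inhibitor replicates 1, 2 and 3 and at 98.2, 106 and 93.8 CPM in DMSO replicates 1, 2 and 3. Every inhibitor library lay above every DMSO library, with a gap from 106 to 434 CPM. The means were 471 ± 52.2 CPM (SD, n = 3) and 99.2 ± 6.04 CPM. The fitted log2 fold change was 2.25 ± 0.11 (SE), which is 4.74-fold and the 17th highest log2 fold change among the genes tested. Between 1128 and 5914 reads per library stand behind these values. The spread between inhibitor libraries was 11.1% of the mean, and counting error alone gives 1.55%. With DMSO the spread was 6.09% and the counting error 2.67%. TRIB3 was thus the Tribbles gene whose groups lay farthest apart.

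**Figure D1:**
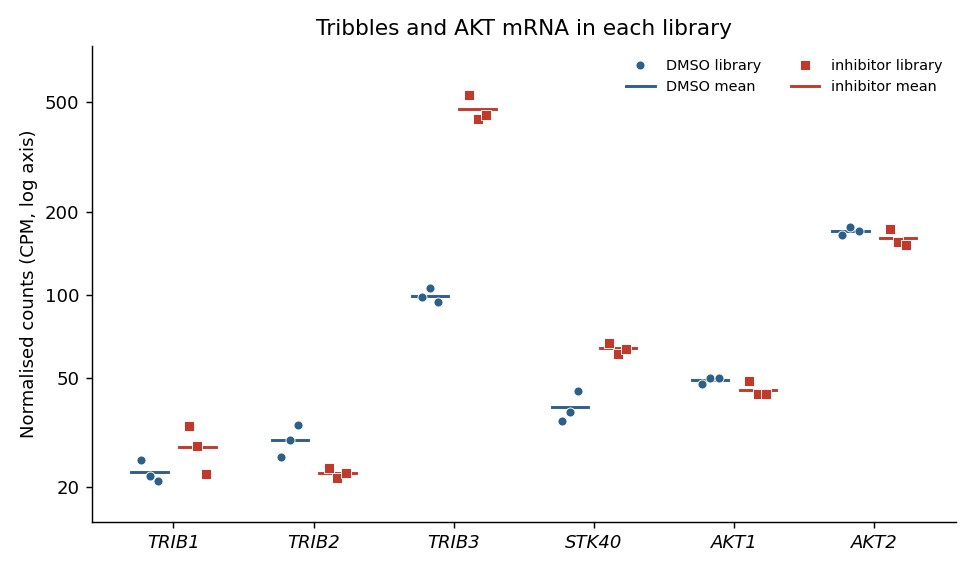
Normalised counts (CPM, log axis) of the Tribbles genes, their relative STK40, AKT1 and AKT2 in each DMSO library (circles) and inhibitor library (squares), with group means as lines. The TRIB3 squares sit between 434 and 530 CPM and its circles between 93.8 and 106 CPM, while the AKT1 and AKT2 groups overlap.

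TRIB2, a COP1 scaffold known for driving loss of C/EBP-alpha in leukaemia, was at 23.5, 21.6 and 22.5 CPM with the inhibitor and at 25.8, 29.6 and 33.7 CPM with DMSO. All inhibitor libraries were below all DMSO libraries, but the nearest pair, 23.5 and 25.8 CPM, was close. The means were 22.6 ± 0.92 and 29.7 ± 3.95 CPM (SD, n = 3), and the fitted log2 fold change was -0.39 ± 0.13 (SE). The inhibitor libraries varied by 4.1% of their mean, under the 7.02% that counting error gives, and the DMSO libraries by 13.3%. The value ran from -0.49 without DMSO replicate 1 to -0.30 without DMSO replicate 3.

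TRIB1, the third mammalian Tribbles gene and a regulator of C/EBP proteins and lipid metabolism in liver, was at 33.3, 28.3 and 22.4 CPM with the inhibitor and at 25.2, 22.0 and 21.1 CPM with DMSO. The groups overlapped, since inhibitor replicate 3 lay below DMSO replicate 1. The means were 28.0 ± 5.45 and 22.8 ± 2.16 CPM (SD, n = 3), with a fitted log2 fold change of 0.31 ± 0.14 (SE). TRIB1 had the widest spread of the 5 genes, at 19.5% of the mean with the inhibitor. In both groups the library with the most counts had the highest TRIB1 level and the library with the fewest the lowest, and the part of depth in that order was not tested. The log2 fold change was 0.16 without inhibitor replicate 1 and 0.43 without inhibitor replicate 3, and 0.27 after thinning all libraries to the lowest total.

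AKT1 and AKT2 had overlapping groups and a small spread between libraries. AKT1, the isoform tied most to growth and survival, was at 48.6, 43.5 and 43.5 CPM with the inhibitor and at 47.4, 49.7 and 49.7 CPM with DMSO. Inhibitor replicate 1 lay inside the DMSO range and the other inhibitor libraries below it. Its means were 45.2 ± 2.93 and 48.9 ± 1.32 CPM (SD, n = 3), with a log2 fold change of -0.11 ± 0.11 (SE). AKT2, the isoform tied most to insulin action and glucose uptake, was at 174, 155 and 151 CPM with the inhibitor and at 165, 176 and 170 CPM with DMSO. Here too inhibitor replicate 1 lay inside the DMSO range and the others below it. Its means were 160.0 ± 11.9 and 170 ± 5.06 CPM, with a log2 fold change of -0.09 ± 0.10 (SE). The within-group SD of log2 CPM was 0.070 for AKT1 and 0.080 for AKT2, against a median of 0.132 and 0.119 over genes of like level.

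**Figure D2:**
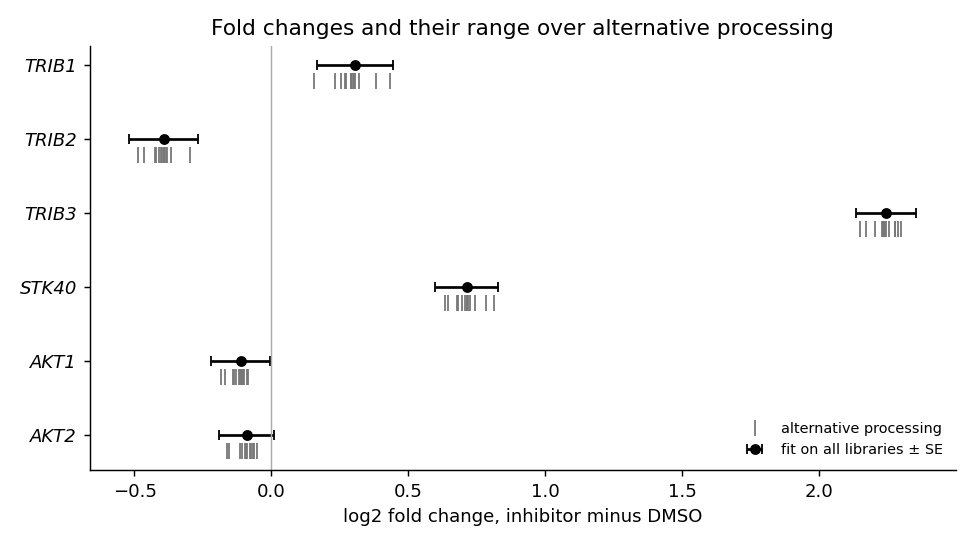
Fitted log2 fold change (inhibitor minus DMSO) of each gene with its SE (black), and the same value under each alternative scaling, filter, tool, replicate block, thinning or left-out library (grey ticks). TRIB3 stays between 2.15 and 2.30, and TRIB1 spans 0.16 to 0.43.

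A relative of the Tribbles genes was tested in the same fit. STK40, a pseudokinase related to the Tribbles proteins that also binds COP1, was at 66.7, 61.0 and 63.8 CPM with the inhibitor and at 34.9, 37.6 and 44.5 CPM with DMSO. Its groups did not overlap. STK40 rose, with a fitted difference of 0.71 ± 0.11 log2 units (SE; edgeR, adjusted p = 0.00012), and its adjusted p stayed at or under 0.00279 in every alternative run.

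Ratios of counts within a library are free of the scaling between libraries. The ratio of AKT1 to AKT2 counts was 0.280, 0.281 and 0.288 in the inhibitor libraries and 0.287, 0.283 and 0.292 in the DMSO libraries. All 6 values lay within 0.280 to 0.292, a spread of 1.49% and 1.52% of the group means, below the counting error of a single library (4.08% to 6.29%).

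Among the Tribbles genes each ratio separated the groups, that of TRIB1 to TRIB2 only narrowly. The ratio of TRIB3 to TRIB2 was 22.6, 20 and 19.9 with the inhibitor and 3.80, 3.57 and 2.78 with DMSO, so its mean was 6.16 times higher with the inhibitor. The TRIB3 to TRIB1 ratio was 15.9, 15.3 and 20 against 3.89, 4.81 and 4.44, 3.90 times higher. The TRIB1 to TRIB2 ratio was 1.42, 1.31 and 0.994 against 0.975, 0.742 and 0.626, with inhibitor replicate 3 just above DMSO replicate 1. That gap lies within the counting error of this ratio in a single library (7.06% to 10.9%). TRIB3 against AKT1 went from 2.03 ± 0.125 (SD, n = 3) with DMSO to 10.4 ± 0.482 with the inhibitor, and against AKT2 from 0.582 ± 0.0276 to 2.94 ± 0.131. These ratios restate the fold changes without a scaling factor and are no further evidence. How often ratios of other gene pairs separate the groups was not looked at.

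**Figure D3:**
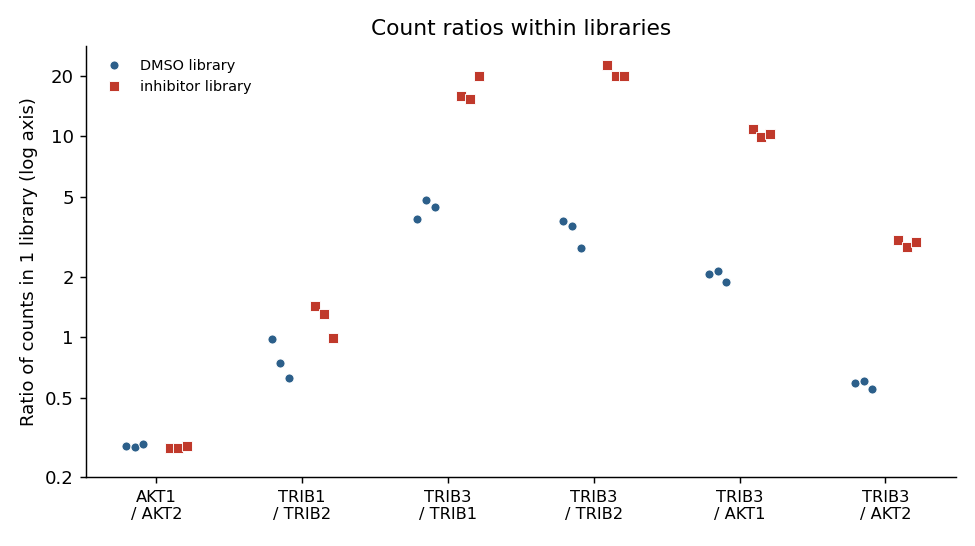
Ratio of the counts of 2 genes within each library (log axis), with DMSO libraries as circles and inhibitor libraries as squares. The AKT1 to AKT2 ratio stays between 0.280 and 0.292 in all 6 libraries, and the TRIB3 to TRIB2 ratio goes from at most 3.80 with DMSO to at least 19.9 with the inhibitor.

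The genes whose log2 CPM over the 6 libraries, centred on the DMSO mean, ran closest to each member were found among 9231 genes with at least 5 CPM. For TRIB3 they were SLFN5, DDIT4 and TAGLN3, at root mean square distances of 0.123, 0.155 and 0.165 log2 units. DDIT4 encodes a stress-induced restraint of mTORC1, and SLFN5 belongs to the interferon-inducible Schlafen family. For TRIB2 they were RAB23, CARNMT1 and ABCF3 (0.029 to 0.045), and for TRIB1 EFEMP1, TMEM204 and CCM2 (0.052 to 0.061). AKT1 and AKT2 shared 2 of their 3 nearest genes, GNG5 and SLC25A43, and the third was SEPT9 for AKT1 and UBR2 for AKT2. Small distances are common near 0 change, so these likenesses are a description only.

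The stress list held factors and kinases of the integrated stress and unfolded protein responses. It also held their phosphatase feedback, PPP1R15A and PPP1R15B. ATF4 and DDIT3 are known activators of TRIB3, and whether the other genes act upstream of TRIB3 was not tested. Of its 14 genes, 13 were tested, 7 rose and 0 fell (53.8%, against 20.2% of all genes). The median log2 fold change was 0.777 against 0.0034 over all genes. Restricted to genes averaging 10 CPM or more, 9 were tested, 4 rose and the median was 0.164. Of all 7952 genes tested under that filter, 873 rose and 912 fell, with a median of -0.003. ATF4, which binds the TRIB3 gene under amino acid shortage, rose from 275 ± 35.8 to 828 ± 110 CPM (SD, n = 3), a log2 fold change of 1.59 ± 0.12 (SE; edgeR, adjusted p = 2.05e-09). XBP1, which drives genes of protein folding in the endoplasmic reticulum, rose by 1.68 ± 0.13 (7.5e-09), the stress regulator NUPR1 by 1.59 ± 0.19 (4.15e-06) and CEBPG, a partner of ATF4, by 1.26 ± 0.17 (2.19e-05), these being edgeR adjusted p. Outside the naming rule and named after their values were seen, ATF3 (1.47 ± 0.22), CEBPB (0.82 ± 0.25) and PPP1R15A (0.78 ± 0.11), which encodes a subunit of the eIF2-alpha phosphatase, rose too. The CEBPB call was lost without inhibitor replicate 1 (edgeR adjusted p = 0.175) and without DMSO replicate 3 (0.105). The 4 kinases of eIF2-alpha, ATF5 and PPP1R15B did not pass the threshold, with log2 fold changes from -0.23 for EIF2AK4 to 0.15 for EIF2AK1. DDIT3, the other known activator of TRIB3, was below the count filter. It had 4, 6 and 5 reads in the inhibitor libraries against 0, 1 and 5 in the DMSO libraries. So few reads do not show that its transcript is rare, since its amplified part may amplify poorly. Some of these genes were shown to rise in an earlier analysis of the same libraries, so they are context and not independent support.

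Of 20 binding partners, clients and relatives of the Tribbles proteins, 17 were tested, 4 rose and 1 fell (29.4%, against 20.2% of all genes), with a median log2 fold change of -0.140. Those that rose were STK40, ATF4, CEBPB and RELA, the NF-kB subunit, at 0.38 ± 0.11 (SE; edgeR, adjusted p = 0.0197). MAP2K4, a kinase upstream of JNK, fell from 19.4 ± 3.12 to 14.1 ± 2.21 CPM (SD, n = 3; log2 fold change -0.47 ± 0.15, adjusted p = 0.0329). COP1, the ligase itself, averaged 31.7 ± 2.03 CPM in DMSO libraries and 26.2 ± 1.81 in inhibitor libraries (-0.27 ± 0.12, adjusted p = 0.106). MAP2K1 (-0.11 ± 0.11) and the lipid synthesis enzyme ACACA (-0.20 ± 0.13), a reported TRIB3 client, did not pass the threshold. MAP2K2 and CEBPA were below the count filter, which does not show that they are unexpressed. Leaving out inhibitor replicate 1 left 2 calls, and leaving out DMSO replicate 3 left 3. RELA lost its call without either of these libraries (edgeR adjusted p = 0.0769 and 0.124) or with library totals as the scaling (0.055). MAP2K4 lost it in DESeq2 (0.0545) and without inhibitor replicate 1 (0.156), inhibitor replicate 3 (0.0598), DMSO replicate 1 (0.172) or DMSO replicate 2 (0.0636).

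**Figure D4:**
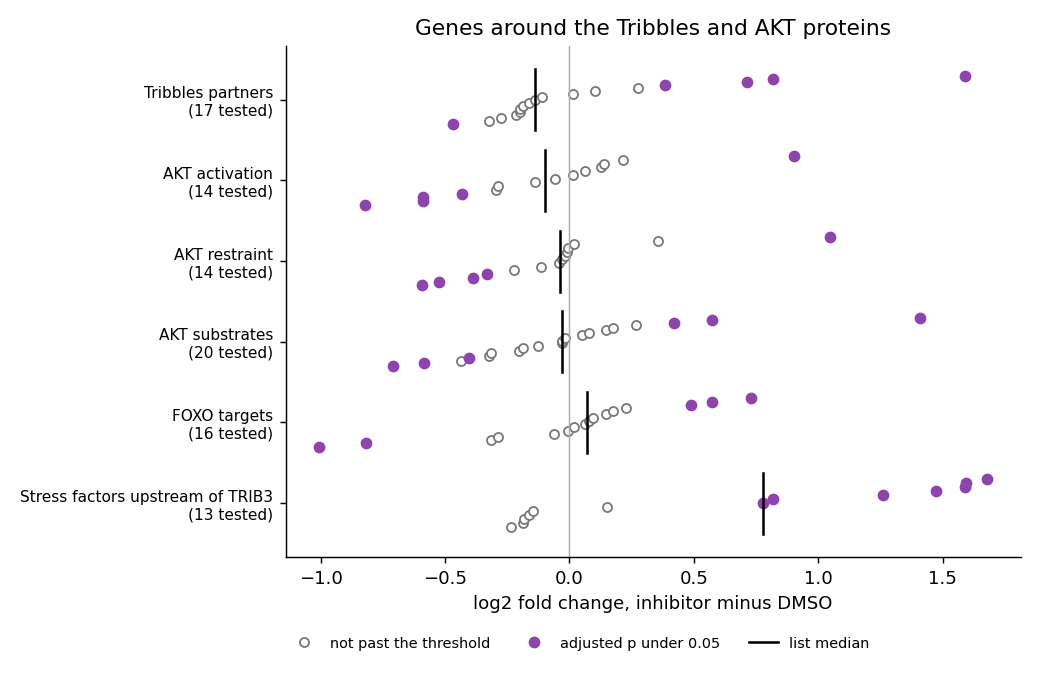
log2 fold change (inhibitor minus DMSO) of each tested gene of the 6 lists, filled where the edgeR adjusted p was under 0.05, with the list median as a black line. The 7 filled points of the stress factor list all lie to the right of 0, and the other lists have filled points on both sides.

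Of 16 genes that lead to AKT activation, 14 were tested, 1 rose and 4 fell (35.7%, against 20.2% of all genes), with a median log2 fold change of -0.098. PIK3CD, the delta catalytic subunit of PI3 kinase, rose from 15.4 ± 2.60 to 28.8 ± 4.38 CPM (SD, n = 3; log2 fold change 0.90 ± 0.14, SE; edgeR, adjusted p = 0.000118). The adaptor gene IRS1 fell from 49.4 ± 5.82 to 33.0 ± 3.58 CPM (-0.59 ± 0.12, adjusted p = 0.00157). PDPK1 fell by 0.43 ± 0.12 on the log2 scale (adjusted p = 0.0162). RICTOR, a subunit of mTORC2, fell by 0.59 ± 0.16 (adjusted p = 0.0116), while the other mTORC2 genes of the list that were tested did not pass the threshold, with -0.29 ± 0.12 for MTOR (adjusted p = 0.0855), -0.06 ± 0.11 for MAPKAP1 and 0.21 ± 0.12 for MLST8. PIK3R3, at under 5 CPM and named after its value was seen, fell by 0.82 on the log2 scale. The catalytic subunits PIK3CA (0.14 ± 0.11) and PIK3CB (0.13 ± 0.15) and the receptor IGF1R (0.06 ± 0.11) did not pass the threshold. The number called was 3 without inhibitor replicate 1 and 3 in thinned libraries. RICTOR lost its call in both (edgeR adjusted p = 0.0909 and 0.0918), and PDPK1 without inhibitor replicate 2 (0.095) or DMSO replicate 3 (0.108). The PIK3R3 call was lost in DESeq2 (0.0965), in thinned libraries (0.0814) and without inhibitor replicate 1 (0.186), DMSO replicate 2 (0.0844) or DMSO replicate 3 (0.0758).

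Of 14 genes that restrain PI3 kinase or AKT, all were tested, 1 rose and 4 fell (35.7%, against 20.2% of all genes), with a median of -0.037. INPP5D, the lipid phosphatase SHIP1, rose from 3.89 ± 0.80 to 7.96 ± 0.17 CPM (SD, n = 3; 1.05 ± 0.19, SE; edgeR, adjusted p = 0.000581). PHLPP2, which removes a phosphate from AKT, fell from 44.3 ± 1.16 to 31.0 ± 6.05 CPM (-0.52 ± 0.13, adjusted p = 0.00637). THEM4, which encodes a protein that binds AKT, fell by 0.59 on the log2 scale with overlapping groups (adjusted p = 0.0184), PPP2R1B, a scaffold subunit of protein phosphatase PP2A, by 0.39 (0.0128), and INPPL1, the lipid phosphatase SHIP2, named after its value was seen, by 0.33 (0.0277). PHLDA3, which competes with AKT for membrane lipids, was at 27.9 ± 2.74 against 21.8 ± 2.73 CPM (0.35 ± 0.13, adjusted p = 0.0568). Leaving out inhibitor replicate 1 left 2 calls, and leaving out DMSO replicate 2 left 3. Without inhibitor replicate 1 the edgeR adjusted p was 0.14 for THEM4, 0.0524 for PPP2R1B and 0.0561 for INPPL1. Without DMSO replicate 2 it was 0.0718 for PPP2R1B and 0.144 for INPPL1. THEM4 also lost its call without inhibitor replicate 2 (0.075) or DMSO replicate 1 (0.0624), and INPPL1 without inhibitor replicate 3 (0.0682).

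Of 20 substrates of AKT, all were tested, 3 rose and 3 fell (30%, against 20.2% of all genes), with a median of -0.029. The cell cycle inhibitor CDKN1A rose from 195 ± 23.0 to 290 ± 40.3 CPM (SD, n = 3; 0.57 ± 0.12, SE; edgeR, adjusted p = 0.00121) and the p53 ligase MDM2 from 174 ± 12.6 to 233 ± 16.9 CPM (0.42 ± 0.10, adjusted p = 0.0057). WNK1, at under 5 CPM and named after its value was seen, rose by 1.41 ± 0.28. TBC1D4, which controls glucose transporter traffic, fell from 16.3 ± 2.92 to 9.81 ± 1.98 CPM (-0.71 ± 0.17, adjusted p = 0.00542). FOXO1, the forkhead factor held back by AKT, fell from 21.5 ± 2.40 to 14.3 ± 0.69 CPM (-0.58 ± 0.14, adjusted p = 0.0041). CHUK, also named after its value was seen, fell by 0.40 log2 units, and that call was lost in thinned libraries (0.0581) and without inhibitor replicate 1 (0.102), inhibitor replicate 2 (0.113), DMSO replicate 1 (0.0569) or DMSO replicate 2 (0.14). GSK3A (0.08 ± 0.11), GSK3B (0.15 ± 0.11), TSC2 (0.18 ± 0.10) and AKT1S1 (-0.03 ± 0.13), the classical substrates of metabolism and growth, did not pass the threshold.

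FOXO target genes moved in both directions. Of 21, 16 were tested, 3 rose and 2 fell (31.2%, against 20.2% of all genes), with a median of 0.070. The cell death gene BBC3 (PUMA) rose from 4.41 ± 1.09 to 7.42 ± 0.49 CPM (SD, n = 3; 0.73 ± 0.20, SE; edgeR, adjusted p = 0.0128), a call lost without DMSO replicate 3 (0.0674). The stress genes SESN1 (0.57 ± 0.11, adjusted p = 0.00117) and GADD45A (0.49 ± 0.12, adjusted p = 0.00559) rose as well. GADD45A was named after its value was seen and lost its call without DMSO replicate 2 (0.0548). TXNIP, a restraint of glucose uptake, fell from 10.7 ± 2.06 to 5.30 ± 1.01 CPM (-1.01 ± 0.19, adjusted p = 0.000745), and the cell death gene BCL2L11 (BIM) from 10.1 ± 0.51 to 5.63 ± 1.17 CPM (-0.82 ± 0.18, adjusted p = 0.00244). BBC3, SESN1 and GADD45A are also known as p53 targets. IRS2 (-0.29 ± 0.12), CCNG2 (-0.01 ± 0.18) and KLHL24 (0.06 ± 0.16), further targets of FOXO factors, did not pass the threshold. With a mean of at least 10 CPM required, 9 of these genes were tested and 2 were called. Under that filter 1785 of all 7952 genes tested were called.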

How the data were processed

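Per the labels' protocols, cDNA was amplified with the Ion AmpliSeq Transcriptome panel and sequenced on the Ion Proton. The authors deposited raw read counts per gene symbol, not normalized, each library in its own file. The submitters' processing notes list HTSeq, DESeq2 1.20.0 and the build hg19, with no roles. For aligner, annotation and strand setting: not given in the sources used here. The tables hold no coordinates, and GRCh38.p14 positions of RefSeq windows were not converted.

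Groups and replicate numbers came from the titles. Counts were fitted in R 4.3.3 with edgeR 4.0.16: filterByExpr (99.92% of counts kept), TMM scaling, glmQLFit and glmQLFTest (inhibitor minus DMSO, no covariate), and Benjamini-Hochberg over 11391 genes, with calls at an adjusted p under 0.05. Rose and fell refer to such calls, and SE was derived from the log2 fold change and its F statistic. Counting errors cover counting only, since PCR reads are not independent molecules. The procedure was also run on simulated counts with far fewer changed genes than were called here, equally many up and down. That run does not show the error rate in these data. Libraries of 1 group differed beyond sampling noise (chi-square over its degrees of freedom, 8.52 to 13.4). PCR alone could also give such an excess, so it does not show that the cultures are independent. Each library counts as 1 replicate because the design text calls them biological replicates.

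The members, the 6 lists and the rule for naming genes were chosen with earlier results of these data known. From each list the rule names up to 4 called genes with the largest absolute log2 fold change and a mean of at least 5 CPM. For each member it names the 3 nearest profiles. Genes of the lists named without passing the threshold fall outside this rule and were chosen after their values were seen. Alternatives were DESeq2 size factors, library totals alone, no filter beyond 1 count, a mean of at least 10 CPM, a replicate block, DESeq2 1.42.0 and each library left out. Thinning to the smallest total was added after the data were seen. Values of some genes of the lists are not reported here.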

Additional observations from a re-analysis of the deposited data

How the results depend on the processing

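The fold changes of TRIB1, TRIB2, TRIB3, AKT1 and AKT2 kept their sign in all 13 alternatives. AKT1 moved by more than its replicate spread with library totals alone (-0.18), a scaling under which the median over all genes shifts by -0.071. Leaving out 1 library at a time, the number of changed genes was 1405 (without DMSO replicate 2) to 2246. It was 2 to 5 for Tribbles partners, 3 to 5 for AKT activation and 2 to 5 for AKT restraint. For AKT substrates it was 5 to 7, for FOXO targets 4 to 5 and for the stress list 6 to 7. In libraries thinned to the smallest total 1954 genes were called, 3 of them in the AKT activation list. With a mean of at least 10 CPM fewer genes are tested, and 1785 of 7952 were called. Under this filter 2 of 9 FOXO targets and 4 of 9 genes of the stress list were called. The median of the stress list was 0.164, against -0.003 over all genes. The titles number the replicates 1 to 3 in both groups, but same-numbered libraries did not deviate together (correlations of 0.0317, -0.0166 and 0.00693), so the numbers were not taken as pairs. With the replicate block 2223 genes were called, and the counts of the 6 lists were 5, 5, 5, 6, 5 and 7, as without it. DDIT3, MAP2K2 and CEBPA were below the count filter and entered only the fits without it. The cause of the other differences was not tested.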

Other observations

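The nearest tested genes on either side of TRIB3 on chromosome 20 were also higher with the inhibitor. In the RefSeq gene order of GRCh38.p14, the nearest tested genes on either side of TRIB2, TRIB3, AKT1 and AKT2 were looked up. No limit was set on the distance, so untested genes or long stretches may lie between a gene and its neighbour. This was done after the member values were seen, and the neighbours of TRIB1 were not looked up. Beside TRIB3, NRSN2 rose from 19.1 ± 0.72 to 29.9 ± 7.35 CPM (SD, n = 3; log2 fold change 0.66 ± 0.15, SE; edgeR, adjusted p = 0.00266), and RBCK1, a subunit of the linear ubiquitin ligase complex, from 53.9 ± 13.4 to 76.6 ± 7.23 CPM (0.51 ± 0.14, adjusted p = 0.0133). RBCK1 lost its call without inhibitor replicate 1 (edgeR adjusted p = 0.066) or DMSO replicate 2 (0.121). Both rises were far smaller than the 2.25 of TRIB3. Beside TRIB2, which was lower with the inhibitor, LPIN1, a lipin phosphatase of lipid synthesis, rose by 0.51 ± 0.14 (adjusted p = 0.0101) and NBAS had 0.23 ± 0.12 (adjusted p = 0.194). The LPIN1 call was lost without inhibitor replicate 2 (0.064) or DMSO replicate 1 (0.0704). Beside AKT2, PLD3 rose by 0.41 ± 0.11 (adjusted p = 0.0149), a call lost without inhibitor replicate 1 (0.0995), DMSO replicate 2 (0.0932) or DMSO replicate 3 (0.0614), while MAP3K10 had 0.32 ± 0.16 (adjusted p = 0.172). Beside AKT1, SIVA1 (-0.24 ± 0.11) and CEP170B (-0.03 ± 0.23) did not pass the threshold. In all, 4 of these 8 neighbours were called, where 20.2% of all genes were, and 8 genes chosen after the values were seen are too few to read a pattern from.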
